A study of Macaca mulatta with 24 samples.

Results

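The values of 9 genes of late red cell maturation were followed in rhesus macaque whole blood before and after 4 Gy of total body irradiation (TBI): the organelle-clearance and receptor genes BNIP3L, TRIM58 and EPOR, the enzyme genes BPGM, BLVRB and ACSL6, the selenium-binding protein gene SELENBP1, the transporter gene SLC16A1 and the small acidic protein gene PTMS. They are 9 of 15045 gene symbols on the array. The scanner output named probes for 8 of the 9, with 13 probes in all, and 1 further probe was assigned to BPGM through its RefSeq accession, so that BPGM lies outside the naming rule. The 9 genes had been chosen on their measured signal in these same arrays over the same days. Their differences between days and pre-irradiation are therefore given as a description and no p-value is printed for them. Where one of the 9 is said to be called, this records on which side of the threshold it fell in the fit over all genes, the same contrast that chose it, and is no independent test.

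The arrays fell into 4 groups, all from 1 cohort of adult, Chinese-origin Macaca mulatta: 7 Pre-irradiation arrays (4 male and 3 female animals), 4 at Day 3 (3 male, 1 female), 6 at Day 5 (4 male, 2 female) and 7 at Day 7 (4 male, 3 female). All animals received the same dose, none of the arrays used here came from a sham-irradiated animal, and each animal served as its own earlier control, so that the passing of time and repeated bleeding cannot be told apart from irradiation. The labels name X-rays and put the first blood at day 0, whereas the study's methods name a cobalt gamma source and blood drawn before the day of irradiation. Globin transcripts had been depleted from the RNA before hybridization on one-colour Agilent rhesus arrays.

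Reticulocytes are the youngest red cells of the blood. After the nucleus is lost they still carry mitochondria, ribosomes and messenger RNA, and these are removed within days while the cell makes its last proteins. BNIP3L (also called NIX) is the receptor on the outer mitochondrial membrane that hands mitochondria to the autophagy machinery, TRIM58 is a ubiquitin ligase that acts on the motor protein dynein during loss of the nucleus, and EPOR is the receptor for erythropoietin, used by earlier red cell precursors. In whole blood a lower signal can come from fewer cells of a type or from less RNA per cell, and these cannot be told apart here.

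Values are log2 of the processed array signal after normalization to the median array. A gene with more than 1 probe is represented by its brightest one, and levels are not comparable between genes. Between 48.3% and 61.2% of probes were well above background on an array. A gene is called at a Benjamini-Hochberg adjusted p below 0.005 in limma, fitted over all probes tested. The number of arrays limits the precision, and each replicate of a group is a different animal.

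Of the 9 genes 8 had a lower mean after irradiation on every day, and EPOR did not. The signal of each of these 8 genes lay below the same animal's own Pre-irradiation array in all 4, all 6 and all 7 animals sampled on the 3 days. Called lower were 7 of 9 genes at Day 3 and 8 of 9 at each later day, and none was called higher. Over all genes tested, the share called lower was 7.6% (Day 3), 9.13% (Day 5) and 7.19% (Day 7), and the share called higher was 5.97%, 6.24% and 2.67%. Since the 9 genes were selected on this contrast, nothing is read from their share. The median of their 9 log2 changes stood at -2.93, -3.88 and -3.23 for the 3 days, beside medians of -0.0039, -0.0046 and -0.012 over all genes tested.

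**Figure D1:**
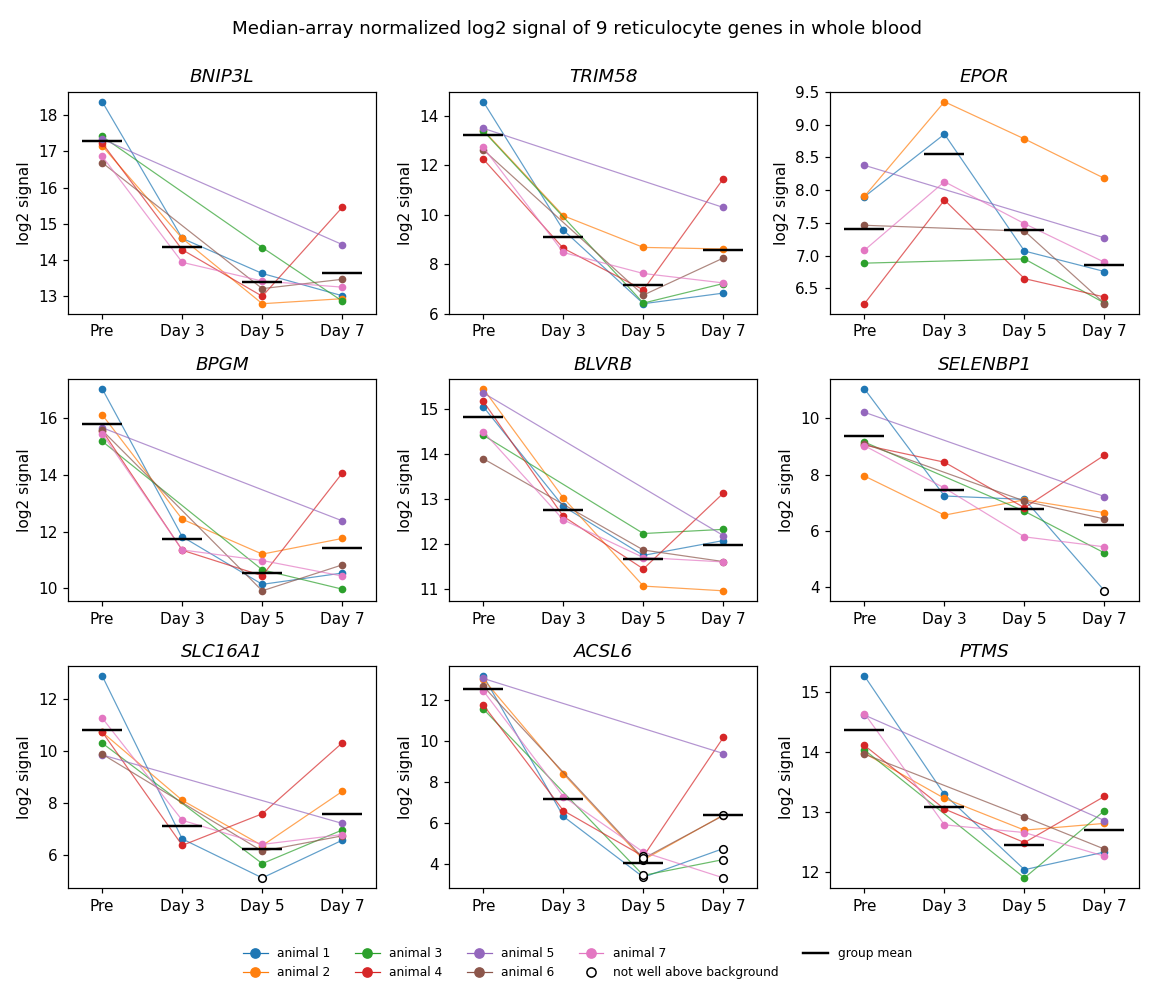
Median-array normalized log2 signal (y axis of each panel, own scale) of the 9 genes by sampling time (x axis), with 1 point per array, lines joining the arrays of an animal, open points for signals not well above background and black bars for group means. In 8 panels the later arrays lie below most or all of the 7 Pre-irradiation arrays, while in the EPOR panel the groups overlap.

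BNIP3L, the mitophagy receptor, was well above background on all 24 arrays. Before irradiation it ran from 16.69 to 18.365 (median 17.23, n = 7). At Day 3 the 4 arrays read 14.60, 14.60, 14.29 and 13.94 (animals 1, 2, 4 and 7). At Day 5 it ran from 12.80 to 14.35 (median 13.32, n = 6) and at Day 7 from 12.87 to 15.46 (median 13.26, n = 7). No later array reached the lowest Pre-irradiation array. On the log2 scale BNIP3L thus differed from Pre-irradiation by -2.93 ± 0.28 (SE) on Day 3, -3.88 ± 0.29 on Day 5 and -3.65 ± 0.39 on Day 7, or 7.63-, 14.8- and 12.6-fold lower. Under quantile normalization the Day 7 change was -3.06.

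TRIM58 had a larger difference. Its Pre-irradiation arrays ran from 12.24 to 14.56 (median 13.39). The Day 3 arrays read 9.38, 9.96, 8.64 and 8.48, the Day 5 arrays ran from 6.41 to 8.68 (median 6.86), and the Day 7 arrays from 6.83 to 11.46 (median 8.25). All groups after irradiation lay below all Pre-irradiation arrays, and the Day 7 arrays spread over 24.7-fold from the lowest to the highest animal. For TRIM58 the mean log2 difference from Pre-irradiation came to -4.09 ± 0.42, -6.06 ± 0.42 and -4.65 ± 0.65 for Day 3, Day 5 and Day 7. With the scan session as a block the TRIM58 values were -5.10 for Day 3 and -7.07 for Day 5, and with a normexp background the Day 5 value was -4.55. Without animal 4 the Day 7 change was -5.29.

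EPOR went another way. Its signal was well above background on all 24 arrays and ran from 6.26 to 8.38 before irradiation (median 7.46). The 4 Day 3 arrays read 8.86, 9.35, 7.85 and 8.13, each above the same animal's own Pre-irradiation array by 0.96 to 1.58. The Day 5 arrays ran from 6.65 to 8.78 (median 7.22) and the Day 7 arrays from 6.27 to 8.18 (median 6.76), so that every group overlapped the Pre-irradiation group. The mean EPOR signal stood apart from Pre-irradiation by 1.14 ± 0.40 on Day 3, -0.03 ± 0.38 on Day 5 and -0.55 ± 0.35 on Day 7, and none of these was called. The Day 3 difference shrank to 0.17 against the single Pre-irradiation array of the same scan session, and to 0.44 with the session as a block. From Day 5 to Day 7 EPOR was lower in 6 of 6 animals, by 0.28 to 1.11, but each of these pairs crosses the scan sessions, and the session as a block moved the Day 5 value from -0.03 to -0.72.

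BPGM encodes bisphosphoglycerate mutase, which makes the 2,3-bisphosphoglycerate that lowers the oxygen affinity of hemoglobin. Its arrays ran from 15.19 to 17.04 before irradiation (median 15.57), read 11.83, 12.44, 11.35 and 11.36 at Day 3, and ran from 9.92 to 11.21 at Day 5 (median 10.55) and from 9.98 to 14.07 at Day 7 (median 10.83). Every later array lay below every Pre-irradiation array, and the Day 5 arrays all lay below the Day 3 arrays. Set against Pre-irradiation, BPGM differed by -4.06 ± 0.34, -5.24 ± 0.29 and -4.37 ± 0.53 for the 3 days, a 16.7-, 37.9- and 20.7-fold lower signal.

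BLVRB encodes biliverdin reductase B, a flavin and biliverdin reductase abundant in red cells. The Pre-irradiation arrays ran from 13.89 to 15.45 (median 15.05), the Day 3 arrays read 12.83, 13.02, 12.61 and 12.53, the Day 5 arrays ran from 11.06 to 12.23 (median 11.72) and the Day 7 arrays from 10.96 to 13.13 (median 12.07). No array after irradiation reached the Pre-irradiation range. Mean BLVRB signal differed from Pre-irradiation by -2.08 ± 0.29, -3.16 ± 0.27 and -2.85 ± 0.32 for the 3 days. The Day 3 call was lost without animal 4.

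SELENBP1, a selenium-binding protein known as a methanethiol oxidase, varied widely between animals before irradiation. It ran from 7.95 to 11.05 (median 9.10), an 8.57-fold range, with animal 1 highest and animal 2 lowest. At Day 3 it read 7.24, 6.56, 8.44 and 7.52, and the array of animal 4 lay within the Pre-irradiation range. Day 5 ran from 5.79 to 7.12 (median 6.94) and Day 7 from 3.87 to 8.69 (median 6.42), the lowest of these not well above background and the highest again within the Pre-irradiation range. Against Pre-irradiation the mean SELENBP1 difference came to -1.92 ± 0.52 on Day 3, which was not called, -2.60 ± 0.41 on Day 5 and -3.15 ± 0.63 on Day 7. The Day 7 value was -2.48 without animal 1, and the gene was no longer called when animal 1, 3, 5, 6 or 7 was left out, with the animal as a block, or within the first scan session. The Day 5 call was lost with the scan session as a block, and with a normexp background it was not called on any day.

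SLC16A1 encodes the monocarboxylate transporter MCT1, which carries lactate across the red cell membrane. Before irradiation it ran from 9.84 to 12.88 (median 10.71), an 8.22-fold range. The Day 3 arrays read 6.60, 8.09, 6.36 and 7.32, the Day 5 arrays ran from 5.10 to 7.57 (median 6.24) with 5 of 6 well above background, and the Day 7 arrays from 6.55 to 10.30 (median 6.95). The Day 7 array of animal 4 lay within the Pre-irradiation range. In SLC16A1 the log2 changes for the 3 days were -3.70 ± 0.54, -4.59 ± 0.48 and -3.23 ± 0.59. The changes at Day 3 and Day 5 were -2.74 and -3.64 against the single Pre-irradiation array of the same scan session, and the Day 7 call was lost without animal 7. With a normexp background SLC16A1 read -2.52, -2.34 and -2.39 and was not called on any day, nor was it at Day 3 with the animal or the scan session as a block or without animal 4.

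ACSL6, a long-chain acyl-CoA synthetase that activates fatty acids, had the largest mean difference of the 9 genes on each day. With a normexp background it came behind BPGM and TRIM58 at Day 3, and behind BPGM, TRIM58 and BNIP3L at Day 5. Its arrays ran from 11.54 to 13.15 before irradiation (median 12.65). At Day 3 they read 6.32, 8.40, 6.60 and 7.29, all well above background. At Day 5 they ran from 3.37 to 4.59 (median 4.24), and only 1 of 6 was well above background. At Day 7 they ran from 3.33 to 10.17 (median 6.37), with 3 of 7 well above background. The groups after irradiation did not overlap the Pre-irradiation group. Expressed as a log2 change, ACSL6 differed by -5.35 ± 0.42 on Day 3, -8.46 ± 0.31 on Day 5 and -6.13 ± 0.90 on Day 7, where the Day 5 value rests on signals of which 5 of 6 were not well above background. With a normexp background the ACSL6 change was -3.74 at Day 3 and -4.03 at Day 5. On these days BPGM read -3.88 and -5.18, TRIM58 -3.75 and -4.55, and BNIP3L -3.02 and -4.41. Without animal 4 the Day 7 change was -6.89. The brighter ACSL6 probe lies on chr6:128381855-128381914 of rheMac2, minus strand, and in 1 of its 3 reading frames it is open until the stop codon at its last bases, shown in capitals. It is printed as the probe behind the ACSL6 values, and the second ACSL6 probe lies 3250 bases away.
ACSL6 brighter probe: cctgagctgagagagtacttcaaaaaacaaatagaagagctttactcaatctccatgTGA

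PTMS encodes parathymosin, a small acidic nuclear protein. Its brighter probe ran from 13.96 to 15.27 before irradiation (median 14.11), read 13.29, 13.22, 13.05 and 12.78 at Day 3, and ran from 11.89 to 12.91 at Day 5 (median 12.57) and from 12.26 to 13.26 at Day 7 (median 12.81). All arrays after irradiation lay below all Pre-irradiation arrays. The brighter PTMS probe differed from Pre-irradiation by -1.29 ± 0.26, -1.93 ± 0.24 and -1.67 ± 0.23 for the 3 days, the smallest differences among the 8 genes with a lower signal, except that with a normexp background those of SELENBP1 (-1.16 and -1.42) were smaller than those of PTMS (-1.29 and -2.35) at Day 3 and Day 5, as was that of SLC16A1 (-2.34) at Day 5. PTMS was not called on any day with that background. Its Day 3 call was also lost with the animal or the scan session as a block, with no filter on dim probes, and when animal 1, 2, 4, 5 or 7 was left out. The second PTMS probe did not read a lower signal, and is printed for that reason. It lies on chr11:6946641-6946700 of rheMac2, plus strand, 425 bases before the brighter probe, and is open in 2 reading frames, 1 of which ends in the stop codon shown in capitals.
PTMS dimmer probe: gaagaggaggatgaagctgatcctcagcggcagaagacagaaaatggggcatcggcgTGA

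**Figure D2:**
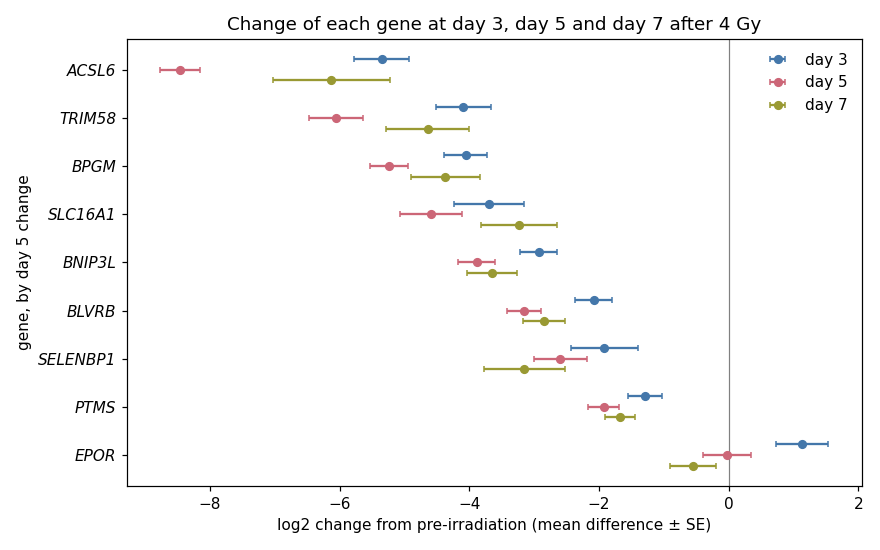
Log2 change from the 7 Pre-irradiation arrays (x axis, mean difference ± SE) for each of the 9 genes (y axis, ordered by the Day 5 change) at Day 3 (n = 4), Day 5 (n = 6) and Day 7 (n = 7). The ACSL6 point at Day 5 rests on signals of which 5 of 6 were not well above background. Apart from ACSL6, values run from -6.06 for TRIM58 at Day 5 to 1.14 for EPOR at Day 3.

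Day 5 had the lowest group mean in 7 of 9 genes, and Day 7 had it in SELENBP1 and EPOR. With a normexp background ACSL6 (-3.74, -4.03 and -4.34) was lowest at Day 7 and SLC16A1 (-2.52, -2.34 and -2.39) at Day 3, without animal 4 BNIP3L was lowest at Day 7, and with the scan session as a block Day 5 was lowest in all 9 genes. With the 3 later groups ordered by mean, neighbours overlapped in all 9 genes. The Day 5 and Day 3 groups did not overlap in BPGM, BLVRB and ACSL6, where every Day 5 array lay below every Day 3 array. They overlapped in the other 6 genes. No share over all genes is given beside this, and the 9 genes were chosen over these same days, so that nothing is read from it. In the 4 animals with arrays at Day 3 and Day 5, 8 or 9 of the 9 genes were lower at Day 5, with median differences of -1.50, -1.28, -1.20 and -0.84 in animals 1, 2, 4 and 7. The exceptions were SELENBP1 in animal 2, higher by 0.54, and SLC16A1 in animal 4, higher by 1.22.

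From Day 5 to Day 7 the animals parted. In all 6 animals with both arrays the Day 5 array was scanned in the second session and the Day 7 array in the first, so that day and session cannot be told apart in these pairs. Animal 4 was higher in 8 of 9 genes, with a median difference of 2.45 and a difference of 4.50 in TRIM58. Its ACSL6 signal was not well above background at Day 5, so that no exact difference is given for that gene. In animals 1, 2, 3 and 6 the medians were 0.33, 0.11, 0.09 and 0.26, and in animal 7, where 1 of 9 genes was higher, the median was -0.38. SLC16A1 was higher at Day 7 in 6 of 6 animals, by 0.38 to 2.73, where the session as a block moved its Day 5 value from -4.59 to -3.94. At Day 7 animal 4 had the highest array of the group in 8 of 9 genes, the exception being EPOR, where animal 2 was highest. Animal 5, which has no Day 3 or Day 5 array and was scanned at Day 7 in the other session, had the second highest Day 7 signal in BNIP3L, TRIM58, BPGM, SELENBP1, ACSL6 and EPOR.

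**Figure D3:**
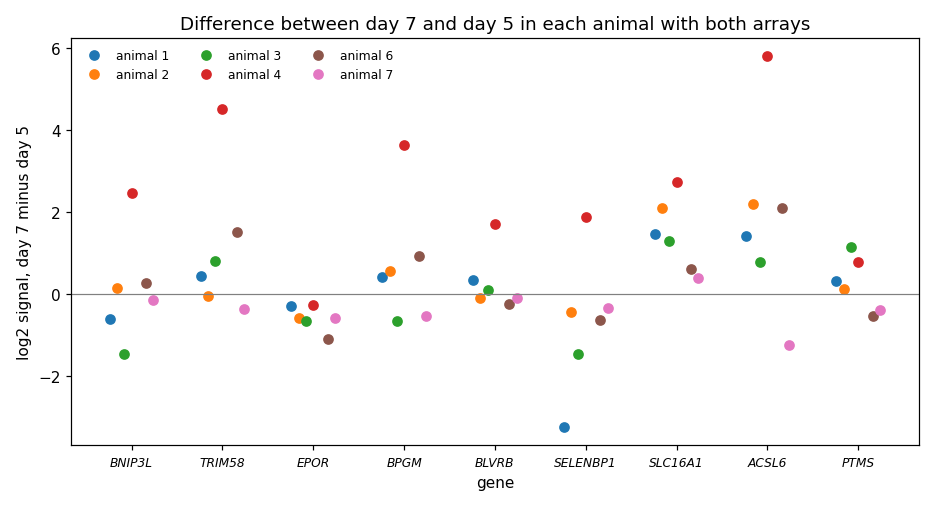
Difference in log2 signal between Day 7 and Day 5 (y axis) for each gene (x axis) in the 6 animals with both arrays, coloured by animal. Animal 4 lies highest in every column except PTMS, reaching 4.50 in TRIM58, the ACSL6 points rest on Day 5 signals of which 5 of 6 were not well above background, and EPOR lies below 0 in all 6 animals.

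The erythroid markers moved with this array. The mean log2 signal of 13 erythroid marker genes ran from 10.81 to 12.51 before irradiation, from 8.93 to 10.43 at Day 3, from 7.06 to 8.52 at Day 5 and from 6.73 to 10.43 at Day 7, where animal 4 was the highest with 10.43 and animal 5 the next with 9.60. Of the other marker lists at Day 7, animal 4 was the lowest of the 7 arrays for neutrophils (12.89, range 12.89 to 14.59) and the highest for platelets (11.21, range 9.72 to 11.21), B cells (7.99, range 7.03 to 7.99), T cells (12.43, range 11.81 to 12.43) and progenitors (9.85, range 9.05 to 9.85). For NK cells it read 11.89 within a range of 11.64 to 12.47, and their part in the result was not tested. The same animal was not highest before irradiation, when animal 1 had the highest array in 7 of 9 genes.

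Markers of other blood cells also moved between groups. Of 10 platelet genes tested 10 rose at Day 3, 2 (ITGA2B and TREML1) at Day 5 and 0 at Day 7 (2 at an unadjusted p below 0.05 in limma). Of 9 B cell genes 8, 8 and 9 fell. Of 10 neutrophil genes 2 rose on each day, CSF3R and FCGR3 at Day 3 and Day 5 and S100A8 and S100A12 at Day 7. Of 9 T cell genes and 9 NK cell genes 0 were called on any day in limma. At an unadjusted p below 0.05 in limma were 5, 3 and 1 T cell genes and 1, 0 and 1 NK cell genes. Over all genes tested 5108 of 10868, 4774 of 10882 and 4158 of 10883 were below it on the 3 days. The unadjusted counts of every gene list are to be read beside these. Of 8 progenitor and proliferation genes MKI67, TOP2A and HMMR rose at Day 7. The platelet list mean ran from 9.24 to 10.71 before irradiation and from 12.51 to 13.41 at Day 3, and the B cell list mean from 10.69 to 10.96 and from 7.52 to 8.56. Their part in the 9 genes' values was not tested.

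Arrays were scanned in 2 sessions, which held 6 Pre-irradiation and 6 Day 7 arrays, and 1 Pre-irradiation array with all Day 3 and Day 5 arrays and 1 Day 7 array. Within the first session the median log2 change of the 9 genes at Day 7 was -3.33, and 7 of 9 were called. Within the second session, against its single Pre-irradiation array, the median was -2.78 at Day 3 and -3.68 at Day 5, and all 4 Day 3 and all 6 Day 5 arrays lay below that array in each gene except EPOR. With 1 array on a side 0 of 9 genes were called there at Day 3 and 3 at Day 5 in limma. Leaving out animal 4 left 4 of 9 genes called at Day 3, without SLC16A1, BLVRB and PTMS, and a block for the animal left 5, without SLC16A1 and PTMS. A normexp background left 5 of 9 called on each day, without SLC16A1, SELENBP1 and PTMS.

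A pair of probes was present for each of 5 genes. Both BLVRB probes, 38 bases apart, read -2.08 and -2.07 at Day 3, -3.16 and -3.16 at Day 5 and -2.85 and -2.48 at Day 7. Both BNIP3L probes, 122 bases apart, read -3.88 and -4.53 at Day 5 and correlated with r = 0.996 over the 24 arrays.

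In the other 3 genes the changes read by the probes differed by more than 1 on the log2 scale on at least 1 day, in ACSL6 on days when most of its signals were not well above background. The dimmer ACSL6 probe was well above background on 7 of 7 arrays before irradiation and on none at Day 3 or Day 5, where its signal was at least 12.8-fold and at least 13.8-fold lower, a bound from the mean of the Pre-irradiation arrays over, on each later array, either the lowest signal counted as well above background or the dim signal itself, whichever was higher. The dimmer SLC16A1 probe, 4746 bases from the brighter one, was well above background on 3 of 7 arrays before irradiation and on 0 of 6 at Day 5, so that no fold is given for it. The dimmer PTMS probe, printed above, was well above background on all 24 arrays and read 6.90 ± 0.79 (SD, n = 7) before irradiation, 7.15 ± 0.49 (n = 4) at Day 3, 7.12 ± 0.62 (n = 6) at Day 5 and 7.47 ± 0.56 (n = 7) at Day 7. Its log2 change was 0.24 ± 0.40, 0.22 ± 0.37 and 0.57 ± 0.34 (SE), none called, and its groups overlapped. Over the 24 arrays the PTMS probes correlated with r = -0.05, and with r = 0.44 after removal of group means.

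**Figure D4:**
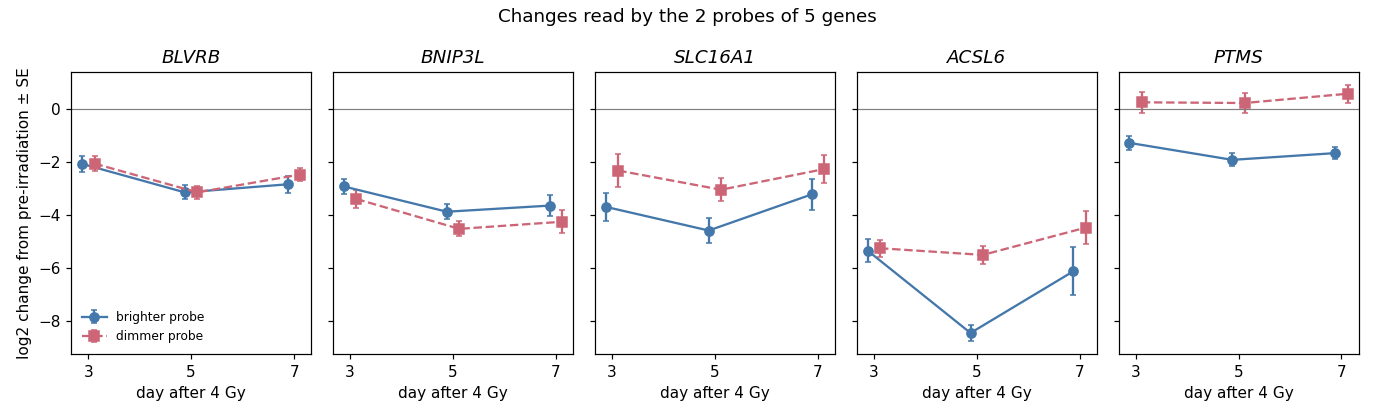
Log2 change from Pre-irradiation ± SE (y axis) at Day 3, Day 5 and Day 7 (x axis) for the brighter (circles) and the dimmer probe (squares) of 5 genes. The probes of BLVRB and BNIP3L lie within 0.65 of each other, while the dimmer PTMS probe stays above 0 on all 3 days.

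Lists of genes that act with or around the 9, or are late erythroid genes like them, held 163 tested genes. Called were 52, 68 and 58 of them at Day 3, Day 5 and Day 7. Of these calls 25, 32 and 34 lay among the 43 other late erythroid genes. Over all genes tested 7.6%, 9.13% and 7.19% were called lower and 5.97%, 6.24% and 2.67% higher. The Day 3 count of 52 was 24 with the animal as a block, 20 with the scan session as a block and 12 with a normexp background. Among the 17 tested genes of erythropoietin receptor signaling, 3 rose and 2 fell at Day 3, 4 rose and 2 fell at Day 5, and 1 rose and 2 fell at Day 7. CISH, a feedback inhibitor of cytokine receptors that signal through STAT5, rose by 1.63 ± 0.20 on the log2 scale at Day 3 (adjusted p = 0.00026), 1.93 ± 0.20 at Day 5 and 1.39 ± 0.27 at Day 7. TFR2, transferrin receptor 2, fell (log2 change -2.91, -4.43 and -3.99), with 3 of 6 arrays at Day 5 and 3 of 7 at Day 7 well above background. BCL2L1, which encodes the survival protein BCL-XL, fell (log2 change -2.95, -3.76 and -2.98). The other genes called were the kinase genes JAK2 (1.02 at Day 3) and LYN (1.30 at Day 3 and 0.94 at Day 5), STAT5A (0.77 at Day 5) and the ubiquitin ligase gene CBL (1.37 at Day 5). The list median was 0.53, 0.09 and -0.04.

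The 31 tested genes of mitophagy and autophagy, the machinery that BNIP3L hands mitochondria to, were mixed too, with 7, 8 and 1 genes higher and 3, 3 and 5 lower at the 3 days. GABARAPL2, which encodes an ATG8-family protein of the kind BNIP3L binds, fell (log2 change -1.99, -2.65 and -2.51). Its relative GABARAPL1 was called at Day 7 alone, by -1.46 ± 0.27. MAP1LC3A, of the same family, rose by 1.43 ± 0.23 at Day 3 and 1.13 ± 0.23 at Day 5 and read 0.05 ± 0.24 at Day 7. The mitophagy receptor gene FUNDC1 fell (log2 change -1.21 and -1.04) at Day 3 and Day 5 and the protease gene ATG4A fell (-1.02, -0.98 and -1.02), while MAP1LC3B (-1.42) and GABARAP (-0.92) were called at Day 7 and ATG16L1 was the gene that rose there, by 0.88. The list median was -0.00010, -0.05 and -0.19.

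Of 17 ubiquitin conjugation and CTLH ligase genes 5, 6 and 6 fell, and 0, 1 and 0 rose. TRIM10, a TRIM protein like TRIM58, fell at Day 3 (-3.78, with 3 of 4 arrays well above background) and Day 7 (-4.29, with 2 of 7), and at Day 5, where no array was well above background, was at least 25.9-fold lower (adjusted p = 1.5e-07). FBXO7, an F-box protein, fell (log2 change -2.64, -3.57 and -3.09), and UBE2O, a ubiquitin-conjugating enzyme of reticulocytes, fell (log2 change -3.01, -3.30 and -2.63). The ubiquitin gene UBB fell (log2 change -1.05, -1.49 and -1.53) and the CTLH subunit gene RMND5A fell (-1.28, -1.40 and -1.04), and MKLN1 was the gene that rose, by 0.50 at Day 5. Of 19 genes of dynein and dynactin, the motor on which TRIM58 acts, 0, 3 and 4 fell and 0, 2 and 1 rose. At Day 3, 7 of the 19 reached an unadjusted p below 0.05 in limma, beside 5108 of 10868 over all genes tested. The light chain gene DYNLL1 read -0.76 ± 0.21 at Day 3 and fell at Day 5 (-1.38) and Day 7 (-1.39). DYNLRB2 read -0.56 at Day 3 and fell (log2 change -0.95 and -0.89), DYNLL2 fell at Day 5 (-0.71) and Day 7 (-0.77), and DYNLRB1 fell by 0.92 at Day 7 alone. The heavy chain gene DYNC1H1 rose by 0.78 and 0.85 at Day 5 and Day 7, and DYNC1LI2 rose by 0.61 at Day 5.

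Around SLC16A1, 2, 3 and 2 of 9 monocarboxylate transport and lactate genes fell and 0 rose. BSG, which encodes basigin, the chaperone that MCT1 needs to reach the membrane, fell (log2 change -1.83, -2.61 and -2.52). SLC16A10, an aromatic amino acid transporter of the same family, read -0.97 at Day 3 and fell (log2 change -1.91 and -2.42). LDHB, a lactate dehydrogenase subunit, fell (log2 change -1.07 and -0.96) at Day 3 and Day 5 and read -0.37 at Day 7.

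Around BPGM 1 glycolysis gene was called lower, on 1 day. Of 10 tested genes 3, 1 and 1 rose and 1, 0 and 0 fell. PKM, a pyruvate kinase gene, rose by 1.05 ± 0.18, 1.30 ± 0.19 and 1.32 ± 0.20. The other pyruvate kinase gene of the list, PKLR, was not tested here, nor were PGAM4 and TPI1. GAPDH and PGAM1, a phosphoglycerate mutase, rose by 0.93 each at Day 3, and the enolase gene ENO2 fell by 1.55 at Day 3 and read 0.06 at Day 7.

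None of the tested relatives of ACSL6 was called lower. Of 9 tested acyl-CoA synthetase genes 1, 3 and 0 rose and 0 fell. At Day 7, 5 of 9 were at an unadjusted p below 0.05 in limma, beside 4158 of 10883 over all genes tested. ACSL1 read 1.25 ± 0.31 at Day 3, rose by 1.66 ± 0.26 at Day 5 (adjusted p = 0.00032) and read 1.19 ± 0.30 at Day 7. ACSL4 rose by 0.89 at Day 5, and ACSS2, which makes acetyl-CoA from acetate, rose by 1.09 at Day 3 and 1.06 at Day 5.

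Of 4 tested heme breakdown genes beside BLVRB, HMOX2, a heme oxygenase, was the single one called, by -0.90 ± 0.17 at Day 7, and 0 were called at Day 3 and Day 5 in limma (0 and 2 at an unadjusted p below 0.05). BLVRA, the other biliverdin reductase, read 0.34 ± 0.18 at Day 5. Of 4 sulfide metabolism genes 0 were called on any day in limma, with 1, 2 and 1 at an unadjusted p below 0.05. PTMA, the one listed relative of PTMS, was not tested here.

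Among 43 other late erythroid genes 25, 32 and 34 fell and 0 rose. Their medians of -2.48, -3.50 and -2.98 had the same day order as those of the 9 genes. EPB42, a red cell membrane skeleton gene, fell (log2 change -4.78, -8.16 and -5.85), with 4 of 6 Day 5 arrays well above background. KLF1, the erythroid transcription factor, fell (log2 change -5.28, -8.07 and -5.53), with 3 of 6 Day 5 arrays well above background, and ALAS2, the first enzyme of heme synthesis in red cells, fell (log2 change -3.63, -8.06 and -4.96). Some genes of the list had higher means at Day 3 without passing the test. RHAG, a blood group membrane protein gene, read 2.17 ± 0.49 there (adjusted p = 0.0055 in limma), each of its 4 arrays exceeding the highest Pre-irradiation one, then 0.30 and -0.50. ANK1, which encodes ankyrin of the membrane skeleton, read 1.08 ± 0.26 at Day 3, then -0.53 and -0.97. GATA1, an erythroid transcription factor, read 0.66 ± 0.37 at Day 3 and -1.09 at Day 5 and fell at Day 7 (-1.84). These 3 genes were chosen after their values were seen. The 7 arrays of the Pre-irradiation group are shared by the comparisons of all 3 days.

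**Figure D5:**
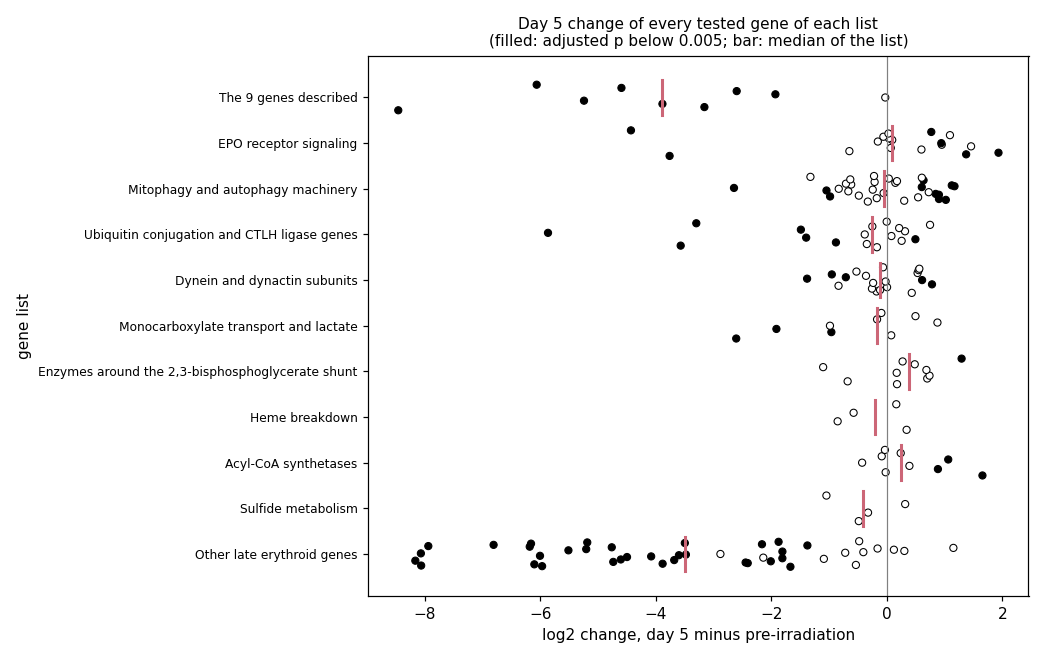
Log2 change at Day 5 from Pre-irradiation (x axis) of every tested gene in each gene list (y axis), filled where the adjusted p was below 0.005, with the list median as a bar. The 9 genes (median -3.88) and the other late erythroid genes (median -3.50) lie to the left, and the medians of the other lists lie between -0.40 and 0.38.

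The signal of the 9 genes over the 24 arrays was most like that of FKBP8 (Pearson r = 0.985 with the mean of the standardized signals), followed by CENPV, FERD3L, ICAM4, HYAL3, SLC25A39, FBXO7 and MBNL3, with r from 0.976 down to 0.972, all named as on the array. After removal of group means r stayed between 0.81 and 0.93 for these 8 genes. Within the set each gene was compared with the mean of the other 8. TRIM58 (r = 0.974) and BPGM (0.973) were closest to it, and EPOR (0.11) was farthest. The points of these correlations share animals and the 4 groups, and are given as a description.

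Sex was not used in choosing the genes and was tested. Before irradiation 0 of 9 genes differed between 4 males and 3 females at an adjusted p below 0.05 in limma, where 0.0482% of all probes tested were called. At an unadjusted p below 0.05 in limma it was 0 of 9 genes, beside 2835 of 26992 probes. With 9 genes and such a share, a count of 0 says little. The female minus male difference ran from -0.83 ± 0.66 (SE) in SLC16A1 to 0.40 ± 0.49 in EPOR. For the Day 7 change 0 of 9 genes and 0% of probes were called for a sex difference. Again 0 of 9 genes had an unadjusted p below 0.05 in limma, beside 2356 of 26958 probes. The difference of the changes ran from -0.49 in EPOR to 0.72 in BNIP3L. In females and males BNIP3L changed by -3.24 and -3.96, TRIM58 by -4.35 and -4.87 and ACSL6 by -6.34 and -5.97. The SE of the differences between changes ran from 0.48 in PTMS to 1.95 in ACSL6, so that sex differences of these sizes could not be resolved.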

How the data were processed

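Blood RNA from 7 animals was hybridized to 24 one-colour arrays. The authors deposited scanner intensity files from Agilent Feature Extraction, whose processed signal is background-corrected (version 12.0.2.2 in the file headers, 10.7 in the labels), and a table of their own normalized log2 values, which was used as an alternative. The labels and headers name a rhesus design, the study's methods a human one. Genome positions are those of rheMac2 in the headers, and no annotation of that build was used here.

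Spots of a probe were averaged without non-uniform or population outlier spots, log2 signals were normalized to the median array, and 27133 of 43603 probes, well above background on at least 4 arrays, were tested. Each day was compared with Pre-irradiation in its own fit by limma 3.58.1 (lmFit, eBayes) in R 4.3.3, two-sided, with Benjamini-Hochberg adjustment and a threshold of 0.005 (0.05 for sex). The scanner files named 23052 probes, and RefSeq accessions named another 898. No column was left unused (0 columns). The members and gene lists were chosen with earlier results of these data known. The monocyte marker list is not reported here. From each list the text names the 3 called genes with the largest change on any day, and any needed to account for a count of 5 or fewer. Likeness of pattern was Pearson r with the mean of the members' standardized signals, and the 8 highest genes are named.

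Same-numbered arrays were taken to be from the same animal. After removal of group means they correlated with r = 0.133 to 0.409 (Day 3, 4 pairs), 0.171 to 0.458 (Day 5, 6 pairs) and 0.129 to 0.44 (Day 7, 7 pairs). The median r of other pairs was -0.0536, -0.0679 and -0.0523. All Day 7 pairs shared a slide and a scan session, so that animal and slide cannot be told apart there. On data simulated for Day 7 (26958 probes) the test recovered 90% of probes changed by -4, 78% by -2, 68% by 2 and 98% by 4 on the log2 scale. The simulated noise was independent between probes and arrays, and fewer probes changed than were called in the data. Day 3 and Day 5, with fewer arrays, were not simulated. Alternatives covered the background correction, scaling, filter, blocks, probe choice and single replicates.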

Additional observations from a re-analysis of the deposited data

Results flagged for a closer look

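For each of the 9 genes the highest and lowest array of each of the 4 groups was compared with the rest of its group (36 groups), and chance alone sets apart about 1 in 20 groups. In 2 of them an array stood apart. BNIP3L in the Pre-irradiation array of animal 1 read 18.365 on the log2 scale, with the next array at 17.409 and the lowest at 16.686, so that the gap was 0.57 of the range. The same array was the highest of its group in 7 of 9 genes. SELENBP1 in the Day 5 array of animal 7 read 5.7889, with the next array at 6.6986 and the highest at 7.1216, a gap of 0.683 of the range.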

How the results depend on the processing

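No called change of the 9 genes reversed under any alternative run, none of which used the dimmer PTMS probe alone. With the median change over all probes of a gene, PTMS read -0.52 at Day 3. The direction of single genes of the other lists was not recomputed. EPOR at Day 5, which was not called, ran from -0.99 within the second scan session to 0.27 with no filter on dim probes, and was also above 0 with the animal as a replicate block (0.14), a normexp background (0.20) and the authors' values (0.03), and without animal 1 (0.12) or animal 5 (0.14). In the alternatives the median log2 change of the 9 genes ran from -3.04 to -2.52, from -3.94 to -3.41 and from -3.33 to -2.60 at the 3 days, single replicates aside. With a normexp background 5 of 9 genes were called at Day 5 and 5 at Day 7, without SLC16A1, SELENBP1 and PTMS, and 12, 22 and 24 genes of the partner lists at the 3 days, against 52, 68 and 58. With the animal as a replicate block 24 partner genes were called at Day 3, and 5, 8 and 7 of the 9 genes at the 3 days, without SLC16A1 and PTMS at Day 3 and SELENBP1 at Day 7. With the scan session as a block 5 of the 9 genes were called at Day 3, without SLC16A1 and PTMS, and 7 at Day 5, without SELENBP1, and 20 and 38 partner genes on these days. Within the second session, an alternative chosen after seeing the data that has 1 Pre-irradiation array assumed to vary like the others, 0 and 3 of the 9 genes and 0 and 17 partner genes were called at Day 3 and Day 5. Leaving out 1 replicate at a time gave 4 to 7 of the 9 genes at Day 3 (4 without animal 4), then 8 to 8 at Day 5, then 6 to 8 for Day 7 (6 without animal 7), and 22 to 47, 50 to 63 and 44 to 58 partner genes, the lowest at Day 3 without animal 4, with 26 without animal 1, 33 without animal 2 and 31 without animal 7. Beside fewer samples in the left-out and within-session fits, the cause was not tested. Among single genes 21 values moved by more than the spread between replicates and 492 did not. With a normexp background ACSL6 read -3.74, -4.03 and -4.34, SLC16A1 -2.52, -2.34 and -2.39, SELENBP1 -1.16, -1.42 and -1.98, and TRIM58 -4.55 at Day 5. With the session as a block ACSL6 read -7.12 and -10.2 and TRIM58 -5.10 and -7.07 at Day 3 and Day 5, SELENBP1 -2.85 and -3.53, SLC16A1 -3.04 and -3.94, and EPOR 0.44 and -0.72. Blocking on the animal moved SLC16A1 to -4.30 at Day 3. Signal over background limits ACSL6, whose brighter probe was well above background on 1 of 6 arrays at Day 5.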
